A study of Mus musculus with 8 samples.

Results

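The 10 Toll-like receptor genes Tlr1, Tlr2, Tlr3, Tlr4, Tlr5, Tlr6, Tlr7, Tlr8, Tlr9 and Tlr13 were followed in the aorta of hyperlipidaemic mice. They were taken from the 48607 loci of the gene table by their symbols, each symbol had 1 row, and the rule used no measured value, although the family was chosen with earlier results of these data known. By title, the fitted level of every one of the 10 was lower in NPRC-/-ApoE-/- than in ApoE-/- libraries, as was that of 50.9% of all loci. The log2 fold change ran from -1.48 for Tlr9 to -0.02 for Tlr7. With single libraries left out it reached 0.33 for Tlr7 and 0.08 for Tlr4. Tlr9, Tlr1 and Tlr8 were past the criterion of a fold below 0.5 with an unadjusted p-value under 0.05, as were 3.77% of all loci. None of the 10 passed a 5% false discovery rate in edgeR, and none met the criterion when the libraries were grouped by their genotype entry in place of their title.

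Toll-like receptors are membrane proteins of innate immune cells that recognise conserved molecules of microbes and, in some settings, molecules released from damaged tissue. Tlr2, Tlr1, Tlr6, Tlr4 and Tlr5 sit at the cell surface and bind lipopeptides, lipopolysaccharide or flagellin. Tlr3, Tlr7, Tlr8, Tlr9 and Tlr13 act in endosomes and bind nucleic acids. Ligand binding recruits the adaptor Myd88, or Ticam1 for Tlr3 and also for Tlr4, and ends in activation of NF-kB and interferon regulatory factors and in transcription of cytokines. In the atherosclerotic artery wall the receptors are known from macrophages, and some are also made by endothelial cells, smooth muscle cells and B cells.

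Poly(A) RNA of the entire aorta of male mice, started on a Western diet as young adults, was sequenced in 8 libraries from 8 mice. All mice lacked ApoE, which makes them prone to atherosclerosis, and the NPRC-/-ApoE-/- mice also carried a frameshift in exon 1 of Npr3, made by CRISPR in every tissue, on the C57BL/6 background. Npr3 encodes NPRC, the natriuretic peptide receptor that clears these peptides. Titles gave 5 ApoE-/- libraries, numbered 1 to 5, and 3 NPRC-/-ApoE-/- libraries, numbered 1 to 3, whereas the published methods name 5 mice in each group, and libraries other than these 8 were not analysed here. Each sample also had a genotype entry, which matched the title in 4 cases (ApoE-/- 1, 2, 3 and NPRC-/-ApoE-/- 3) and contradicted it in the other 4. ApoE-/- 4 and 5 were entered Nprc-/-Apoe-/-, whereas NPRC-/-ApoE-/- 1 and 2 were entered Apoe-/-. Below, libraries are called by their titles, and the main comparisons of the receptors are given by title and by genotype entry. Counts of genes past the criterion within single marker or pathway lists are given by title only.

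Npr3 did not separate the groups under either label. Its level in FPKM (fragments per transcript length, scaled to sequencing depth) was 1.69, 0.93, 0.62, 1.01 and 1.67 across ApoE-/- 1 to 5 and 1.18, 1.39 and 1.13 across NPRC-/-ApoE-/- 1 to 3. The edgeR log2 fold change of Npr3 was 0.10 (SE 0.27, adjusted p = 0.907) by title and 0.16 (SE 0.28, adjusted p = 1.0) by genotype entry. A frameshift can leave the transcript in place, so these values do not tell which label holds. Total counts were 62969165 to 86693276 per library, of which the 10 receptors took 0.011 to 0.0305%, and each receptor had between 118 and 8441 counts in a library. The biological coefficient of variation was 0.416 by title, so the number and spread of the libraries, and not counting, limited the precision.

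The positions are those of the mouse build GRCm38. Tlr1 (chr5:64924679-64933563) and Tlr6 (chr5:64952031-64960097) lie next to each other on the minus strand, as do Tlr8 (chrX:167237192-167264329) and Tlr7 (chrX:167304929-167330558). Tlr2 is at chr3:83836272-83841767, Tlr3 at chr8:45395665-45410619, Tlr4 at chr4:66827584-66930284, Tlr5 at chr1:182954788-182976044, Tlr9 at chr9:106222598-106229868 and Tlr13 at chrX:106143204-106160493. The span in the table equalled the GENCODE M21 gene for 7 of the 10, while the Tlr3 locus was shorter and the Tlr8 and Tlr9 loci ran beyond the annotated 3′ end. Tlr1 and Tlr6 are paralogs, and 15.4% of the 50-base windows of Tlr1 and 12.3% of those of Tlr6 occurred in another gene, for the most part in each other, so that counts of the pair may be split between them. For Tlr3 it was 5.30% of windows, in the antisense gene Gm45542, whose exons overlap those of Tlr3 by 381 bases.

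The sequences upstream of the start of Tlr9, Tlr8, Tlr1 and Tlr13 are shown because the first 3 were called lower by title and because these 4 were the genes, of the 8 with an entry in the promoter table, that held GAGGAA, the core recognised by PU.1, a transcription factor of myeloid and B cells. Each is the 250 bases before a RefSeq transcription start on GRCm38.p6, written 5′ to 3′ on the strand of the gene, with the motif or its reverse complement TTCCTC in capitals. The windows are chr9:106222348-106222597 (plus strand) for Tlr9, chrX:167264330-167264579 (minus strand) for Tlr8, chr5:64933559-64933808 (minus strand) for Tlr1 and chrX:106143025-106143274 (plus strand) for Tlr13.
Tlr9: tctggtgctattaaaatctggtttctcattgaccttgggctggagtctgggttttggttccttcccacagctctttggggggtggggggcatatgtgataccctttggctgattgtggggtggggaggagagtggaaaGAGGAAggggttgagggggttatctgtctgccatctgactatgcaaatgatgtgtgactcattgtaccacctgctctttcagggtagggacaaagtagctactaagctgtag
Tlr8: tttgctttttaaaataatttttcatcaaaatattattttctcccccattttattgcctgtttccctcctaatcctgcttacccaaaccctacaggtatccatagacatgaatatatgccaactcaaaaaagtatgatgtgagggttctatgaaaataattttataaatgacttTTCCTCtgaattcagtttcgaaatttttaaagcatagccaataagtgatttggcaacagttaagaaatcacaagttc
Tlr1: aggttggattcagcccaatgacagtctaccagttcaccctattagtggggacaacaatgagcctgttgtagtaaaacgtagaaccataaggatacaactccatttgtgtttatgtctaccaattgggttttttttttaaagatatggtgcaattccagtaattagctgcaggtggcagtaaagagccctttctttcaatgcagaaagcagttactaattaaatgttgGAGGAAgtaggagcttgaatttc
Tlr13: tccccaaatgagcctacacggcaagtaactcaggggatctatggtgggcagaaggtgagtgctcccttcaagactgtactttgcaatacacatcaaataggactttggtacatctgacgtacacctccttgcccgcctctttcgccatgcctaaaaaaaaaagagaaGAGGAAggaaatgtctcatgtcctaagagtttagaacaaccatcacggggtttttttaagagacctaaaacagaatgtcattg
The motif began 112 bases before the start in Tlr9, 77 in Tlr8, 23 in Tlr1 and 83 in Tlr13. It was not found in the windows of Tlr2, Tlr3, Tlr5 and Tlr6, nor in that of the other start listed for Tlr1. Searched on both strands, GAGGAA was present in 23.3% of all 32851 promoter windows and in 25.9% of 27025 genes. The interferon-stimulated response element was found in Tlr6 only and in 3.46% of all genes, and the NF-kB site in Tlr3 only and in 0.414% of all genes. A match of these letters is a description and not a binding site.

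The order of the receptors by mean level per length over the 8 libraries was Tlr13, Tlr2, Tlr4, Tlr7, Tlr1, Tlr8, Tlr9, Tlr3, Tlr6 and Tlr5. This order depends on the transcript lengths behind FPKM, which are not given. In ApoE-/- 1, Tlr4 had 4720 counts and 3.89 FPKM, and Tlr2 had 2223 counts and 7.50 FPKM. Their annotated exons cover 5556 and 3014 bases, a smaller contrast in length than these values imply. Tlr4, and Tlr8 and Tlr9 with their extended loci, may therefore rank too low. Tlr13, the receptor of bacterial ribosomal RNA, had a mean of 9.94 ± 5.86 FPKM (SD, n = 8), and Tlr2, the lipopeptide receptor that pairs with Tlr1 or Tlr6, had 8.11 ± 3.89. Tlr5, the flagellin receptor, was lowest at 0.799 ± 0.213. Neighbours in this order were mostly not separated beyond their spread. The upper neighbour had the higher level in 5 of 8 libraries for Tlr7 over Tlr1, Tlr1 over Tlr8, Tlr9 over Tlr3 and Tlr6 over Tlr5, in 6 for Tlr4 over Tlr7 and Tlr8 over Tlr9, and in 7 for Tlr13 over Tlr2 and Tlr2 over Tlr4. Only Tlr3 over Tlr6 held in 8 of 8. The highest library exceeded the lowest by 5.91-fold in Tlr1, 5.74-fold in Tlr8, 5.67-fold in Tlr13 and 5.61-fold in Tlr9, but by 1.83-fold in Tlr3, 2.18-fold in Tlr4 and 2.37-fold in Tlr5.

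**Figure D1:**
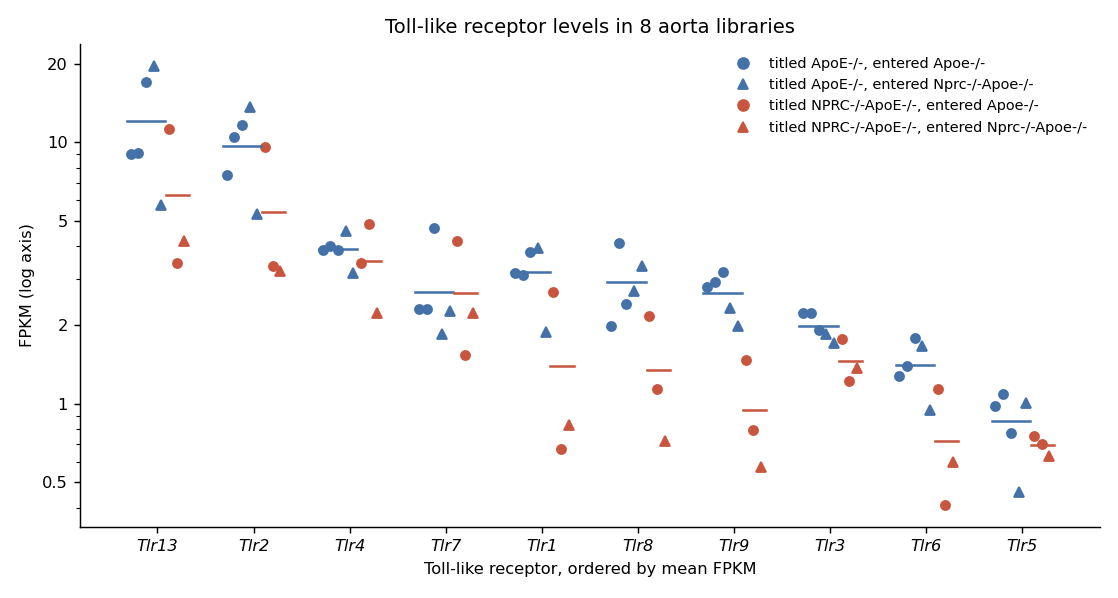
FPKM of the 10 Toll-like receptors on a log axis, 1 point per library in the order ApoE-/- 1 to 5 and NPRC-/-ApoE-/- 1 to 3. Colour gives the title, shape the genotype entry, and horizontal lines the mean of each titled group. Tlr9 is the receptor whose titled groups do not overlap, with 1.98 FPKM as the lowest ApoE-/- value and 1.47 as the highest NPRC-/-ApoE-/- value.

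The first comparison asked whether the receptors differed between aortas of NPRC-/-ApoE-/- and ApoE-/- mice as titled. Among the endosomal receptors, Tlr9, the sensor of unmethylated CpG DNA, had the largest difference of the 10. Its level was 2.80, 2.93, 3.20, 2.32 and 1.98 FPKM in ApoE-/- 1 to 5 and 1.47, 0.79 and 0.57 FPKM in NPRC-/-ApoE-/- 1 to 3. All 3 NPRC-/-ApoE-/- libraries lay below all 5 ApoE-/- libraries, and Tlr9 was the only receptor without overlap. A difference of this kind, without overlap and lower, was seen in 4.08% of the 32816 loci tested, and without overlap in 3.53% higher and 7.61% in either direction. The log2 fold change of Tlr9 was -1.48 (SE 0.31), a fold of 0.358, with an unadjusted p-value of 0.00104 and an adjusted p-value of 0.208 in edgeR's quasi-likelihood test. The two-sided exact permutation test of the mean log2 CPM (counts scaled to the library size) gave p = 0.0357, the smallest value that 5 against 3 libraries allow. The call was kept without any 1 of the 8 libraries, with a log2 fold change of -1.93 to -1.24.

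Tlr8, which like Tlr7 responds to single-stranded RNA, was also called lower by title. Its level was 1.99, 4.13, 2.41, 2.70 and 3.38 FPKM in ApoE-/- 1 to 5 and 2.16, 1.14 and 0.72 FPKM in NPRC-/-ApoE-/- 1 to 3. NPRC-/-ApoE-/- 1 lay above ApoE-/- 1, which was the single overlap. The log2 fold change was -1.11 (SE 0.35, unadjusted p = 0.0112, adjusted p = 0.292 in edgeR), and the exact permutation p-value was 0.0714. The call was lost without ApoE-/- 2 (-0.96), NPRC-/-ApoE-/- 2 (-0.98) or NPRC-/-ApoE-/- 3 (-0.83).

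The other endosomal receptors were not called with all 8 libraries. Tlr7 was 2.31, 2.31, 4.71, 1.85 and 2.26 FPKM in ApoE-/- 1 to 5 and 4.19, 1.53 and 2.22 FPKM in NPRC-/-ApoE-/- 1 to 3, so that 1 library of each titled group stood high. Its log2 fold change was -0.02 with a 95% interval from -0.81 to 0.76. Although Tlr7 and Tlr8 are neighbours on the X chromosome and recognise related ligands, their highest libraries differed, ApoE-/- 3 for Tlr7 and ApoE-/- 2 for Tlr8. Tlr13 ranged from 5.78 to 19.63 FPKM in ApoE-/- and from 3.46 to 11.27 FPKM in NPRC-/-ApoE-/- libraries, with a log2 fold change of -0.97 (SE 0.53, unadjusted p = 0.0989, edgeR). It was called without ApoE-/- 5 (-1.16) or NPRC-/-ApoE-/- 1 (-1.65), and with single libraries left out its log2 fold change lay between -1.65 and -0.64. Tlr3, the receptor of double-stranded RNA, had a small difference with little spread. It was 1.98 ± 0.234 FPKM (SD, n = 5) against 1.45 ± 0.284 (n = 3), a log2 fold change of -0.43 (SE 0.17, unadjusted p = 0.0363, adjusted p = 0.362 in edgeR), which is not past the fold criterion.

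At the cell surface, Tlr1 was called lower by title, while its partner Tlr2 and its paralog Tlr6 were not called with all 8 libraries. Tlr1 was 3.16, 3.11, 3.80, 3.96 and 1.88 FPKM in ApoE-/- 1 to 5 and 2.67, 0.67 and 0.83 FPKM in NPRC-/-ApoE-/- 1 to 3. NPRC-/-ApoE-/- 1 lay above ApoE-/- 5 and the other NPRC-/-ApoE-/- libraries lay below all of the ApoE-/- group. The log2 fold change was -1.20 (SE 0.47, unadjusted p = 0.0305, adjusted p = 0.353 in edgeR), with an exact permutation p-value of 0.0714. The call was lost without ApoE-/- 3 (-1.10), ApoE-/- 4 (-1.09), NPRC-/-ApoE-/- 2 (-0.85) or NPRC-/-ApoE-/- 3 (-0.96). Tlr6 had a log2 fold change of -0.97 (SE 0.37, unadjusted p = 0.0255, adjusted p = 0.342), just short of the fold criterion, with a mean of 1.41 ± 0.327 FPKM (SD, n = 5) against 0.717 ± 0.379 (n = 3). Tlr6 was called without ApoE-/- 1 (-1.03), ApoE-/- 5 (-1.10) or NPRC-/-ApoE-/- 1 (-1.44), and in the 6 libraries numbered 1 to 3 with the replicate block (-1.14) and without it (-1.04). Its log2 fold change lay between -1.44 and -0.66 with single libraries left out. Whether Tlr1 differed more than Tlr6 was not tested, and the shared sequence of the pair limits such a reading.

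Tlr2, like Tlr13, was highest in ApoE-/- 4 and 3. It was 7.50, 10.51, 11.71, 13.62 and 5.33 FPKM in ApoE-/- 1 to 5 and 9.64, 3.38 and 3.22 FPKM in NPRC-/-ApoE-/- 1 to 3, a log2 fold change of -0.86 (95% interval -1.74 to 0.02). NPRC-/-ApoE-/- 1 was above both ApoE-/- 1 and ApoE-/- 5. Tlr2 was called without ApoE-/- 5 (-1.03) or NPRC-/-ApoE-/- 1 (-1.54), and its log2 fold change lay between -1.54 and -0.59 with single libraries left out. Tlr4, the lipopolysaccharide receptor, was 3.91 ± 0.510 FPKM (n = 5) against 3.52 ± 1.32 (n = 3), and its highest library of all 8, at 4.86 FPKM, was NPRC-/-ApoE-/- 2, where 6 other receptors had their lowest log2 CPM. The 95% interval of its log2 fold change was -0.62 to 0.33, and that of Tlr5 was -0.75 to 0.19, so that neither interval reached a 2-fold difference.

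Over the 10 receptors, 3 were called lower and 0 higher by title, against 3.77% of all loci tested called lower and 5.30% called in either direction. In all 10 the log2 fold change was below 0, as in 50.9% of all loci, and 5 of the 10 had an unadjusted p-value under 0.05, as had 12.7% of all loci. The median log2 fold change was -0.91 for the receptors and -0.01 over all loci. At an adjusted p-value under 0.05 edgeR called 0 of 10 receptors and 0 of 32816 loci, DESeq2 called 1 receptor (Tlr9) and limma with array quality weights called 4 (Tlr1, Tlr6, Tlr8 and Tlr9), and those tools called 3.04% and 5.70% of the loci they tested. Since the receptors share libraries, and may share cells of origin, they are not 10 independent observations.

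By genotype entry, no receptor was called and the intervals were wide. In edgeR, 0 of the 10 were called, where 0.503% of all loci were called lower, 0.509% higher and 1.01% in either direction. Likewise 0 of the 10 had an unadjusted p-value under 0.05, as had 1.73% of all loci (0.841% with a lower level), and neither DESeq2 nor limma gave any receptor an adjusted p-value under 0.05. The groups overlapped for all 10, while 0.664% of all loci were lower without overlap, 0.914% higher and 1.58% in either direction. The log2 fold change was below 0 for 9 of the 10, as for 50.6% of all loci, with a median of -0.20. The largest differences were those of Tlr7 (-0.50, SE 0.38) and Tlr9 (-0.45, SE 0.54), Tlr8 was at -0.05 (SE 0.49), and Tlr13 was at 0.03 (SE 0.60). For Tlr9 the 5 libraries entered Apoe-/- ranged from 0.79 to 3.20 FPKM and the 3 entered Nprc-/-Apoe-/- from 0.57 to 2.32. The groups thus overlapped between 0.79 and 2.32 FPKM. The intervals of Tlr1, Tlr2, Tlr6, Tlr7, Tlr8, Tlr9 and Tlr13 by genotype entry still included a 2-fold lower level.

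**Figure D2:**
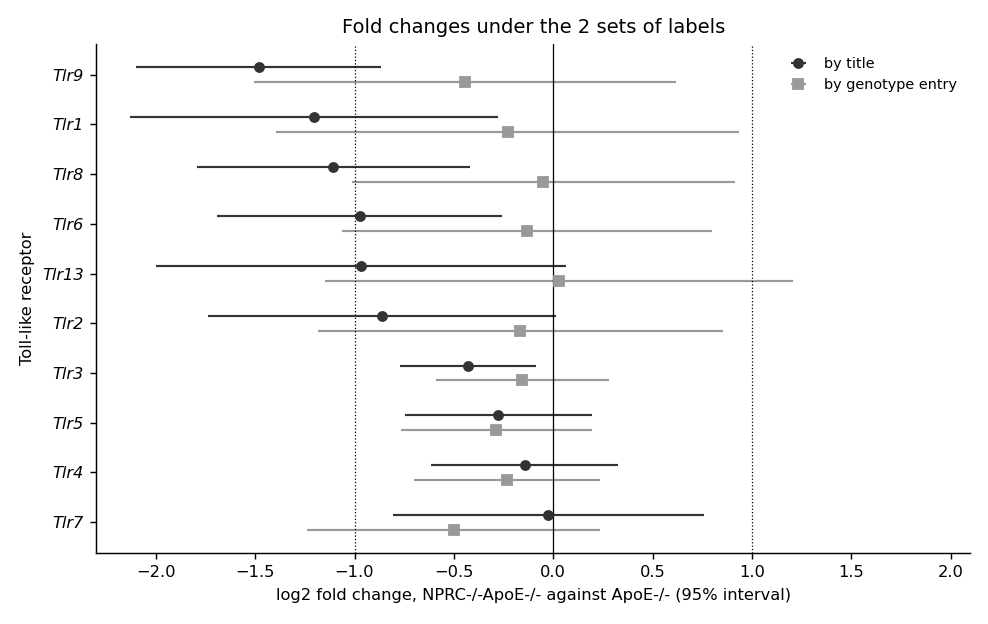
log2 fold change (NPRC-/-ApoE-/- against ApoE-/-) of the 10 receptors from edgeR, with approximate 95% intervals, by title (dark circles) and by genotype entry (grey squares). Dotted lines mark a 2-fold difference. By title Tlr9 stands lowest at -1.48 and Tlr7 is at -0.02, while by genotype entry all 10 intervals include 0.

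Among the 4 libraries with matching labels, NPRC-/-ApoE-/- 3 was set beside ApoE-/- 1, 2 and 3 as values only, and no test was run. It lay below all 3 for 9 of the 10 receptors, the exception being Tlr7. The share of all loci at which this library lay below all 3 was not computed, so the count has no background to be read against. The receptors were measured in the same libraries, so they are not 10 independent observations. Whether they share cells of origin was not tested. The difference in log2 CPM from the mean of the 3 was -2.29 for Tlr9, -1.91 for Tlr1, -1.81 for Tlr8, -1.51 for Tlr2, -1.32 for Tlr13 and -1.19 for Tlr6. It was smaller for Tlr4 (-0.73), Tlr3 (-0.54), Tlr5 (-0.50) and Tlr7 (-0.31). These values rest on 1 library on the NPRC-/-ApoE-/- side.

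The libraries themselves differed in the whole set of receptors. The mean of the 10 receptors' log2 CPM, each centred on its own mean over the 8 libraries, was 0.15, 0.37, 0.65, 0.46 and -0.14 in ApoE-/- 1 to 5 and 0.15, -0.83 and -0.82 in NPRC-/-ApoE-/- 1 to 3. NPRC-/-ApoE-/- 1, which is entered Apoe-/-, was thus at the value of ApoE-/- 1, while NPRC-/-ApoE-/- 2, also entered Apoe-/-, was the lowest. NPRC-/-ApoE-/- 2 had the lowest level of 6 receptors and NPRC-/-ApoE-/- 3 that of 3, and ApoE-/- 4 had the lowest Tlr5 together with the highest Tlr1, Tlr2, Tlr4 and Tlr13. For Tlr4 this order is on the CPM scale, where each count is scaled to the TMM-adjusted library size, and not on FPKM.

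Markers of macrophages, and of several other cell types, moved with the same libraries. In bulk tissue, fewer cells of a type and less RNA per cell cannot be told apart. The mean log2 CPM of 10 macrophage markers (Adgre1, Cd68, Csf1r, Fcgr1, Mertk, C1qa, C1qb, C1qc, Mrc1 and Lyz2) was 7.12, 7.52, 8.09, 8.03 and 6.81 in ApoE-/- 1 to 5 and 7.14, 6.33 and 6.05 in NPRC-/-ApoE-/- 1 to 3. All 10 were detected in every library. By title, 5 of the 10 markers were called lower, beside 3.77% of all loci. Their mean was lower by 1.01 on the log2 scale, with overlap between groups. The summed level was 1815 to 4987 CPM against 1216 to 2555 CPM. By genotype entry the difference in the mean was -0.28. All 5 smooth muscle markers were higher by title, none past 2-fold. Each had an unadjusted edgeR p-value under 0.05, as had 12.7% of all loci. Their mean differed by 0.70 on the log2 scale without overlap, where 3.53% of single loci were higher without overlap. By genotype entry the mean of the smooth muscle markers differed by 0.13, with overlap. Under that label 0 of the 5 had an unadjusted edgeR p-value under 0.05, beside 1.73% of all loci. Endothelial markers differed by -0.06 by title and by -0.04 by genotype entry.

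Markers of other cell types were lower by title as well. The mean log2 CPM of 4 fibroblast markers was 9.29, 9.57, 10.22, 10.20 and 8.82 in ApoE-/- 1 to 5 and 9.31, 8.10 and 8.73 in NPRC-/-ApoE-/- 1 to 3, a difference of -0.91 with 0 of the 4 markers called. Like the macrophage markers, it was highest in ApoE-/- 3 and 4 and lowest in NPRC-/-ApoE-/- 2 and 3. Dendritic cell markers differed by -0.79 (3 of 7 called lower) and T cell markers by -0.98 (2 of 5). B cell markers differed by -1.48 (0 of 4, with ApoE-/- 2 at 3.52 and NPRC-/-ApoE-/- 2 at -2.56). Neutrophil markers differed by 0.02 and fat markers by 0.25 (0 of 5 called). The neutrophil mean includes Ly6g, at most 0.12 FPKM, which did not pass the filter. Of the 4 neutrophil markers tested, 3 were lower and 1, Csf3r, was called lower (log2 fold change -1.01). The groups overlapped for each of these lists. Of all loci, 3.77% were called lower by title. By genotype entry the differences were -0.05 for fibroblast, -0.46 for dendritic cell, 0.59 for T cell and -0.94 for B cell markers. Under that label neutrophil markers differed by -0.17 and fat markers by -0.03. The part of these cell types in the receptors' differences was not tested.

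**Figure D3:**
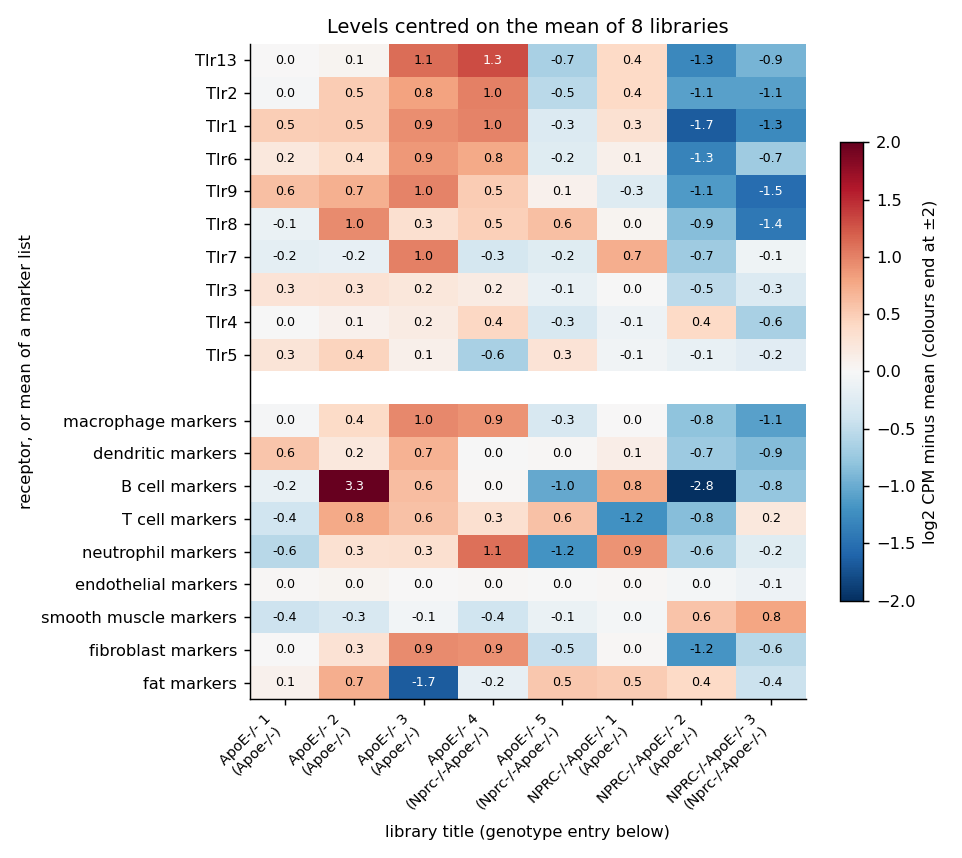
log2 CPM of each receptor, and mean log2 CPM of each cell type's marker list, minus the mean over the 8 libraries, with the rounded value in each cell. Columns are libraries by title with the genotype entry in brackets. Tlr13, Tlr2, Tlr1 and Tlr6, like the rows of macrophage and fibroblast markers, are highest in ApoE-/- 3 and 4 and lowest in NPRC-/-ApoE-/- 2 and 3, while Tlr4 is at 0.40 in NPRC-/-ApoE-/- 2 and Tlr5 at -0.64 in ApoE-/- 4.

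The receptors were also set against the macrophage markers, library by library. The standard deviation of log2 CPM over the 8 libraries was 0.82 for Tlr2, and 0.22 once the mean log2 CPM of the macrophage markers was subtracted in each library. In the same way it went from 0.93 to 0.34 for Tlr13, from 0.74 to 0.27 for Tlr6, from 0.99 to 0.40 for Tlr1, from 0.91 to 0.41 for Tlr9 and from 0.79 to 0.52 for Tlr8. It increased instead for Tlr3 (0.30 to 0.52), Tlr4 (0.36 to 0.61), Tlr5 (0.35 to 0.82) and Tlr7 (0.57 to 0.70). The marker mean itself had a standard deviation of 0.74, and for a receptor with a smaller spread than that, subtraction can raise the spread even where both move together. The increase in Tlr3, Tlr4, Tlr5 and Tlr7 therefore does not tell whether they moved with the markers.

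Relative to the macrophage markers, Tlr9 was lower by title by 0.54 on the log2 scale, with overlap, and Tlr7 was higher by 0.97, without overlap (at least -3.41 in NPRC-/-ApoE-/- and at most -3.43 in ApoE-/- libraries). Tlr4, Tlr5 and Tlr3 were higher on this relative scale by 0.82, 0.78 and 0.58, with overlap. The marker mean itself differed by -1.01 by title, so a receptor with little difference comes out higher after subtraction. The rises of Tlr7, Tlr4, Tlr5 and Tlr3 therefore do not show that these receptors differed. How many loci separate without overlap on this relative scale was not computed. Tlr2, Tlr6 and Tlr13 differed by 0.07, -0.03 and 0.03, and Tlr1 and Tlr8 by -0.39 and -0.18. By genotype entry the relative difference was -0.21 for Tlr9, -0.08 for Tlr7, -0.01 for Tlr4, -0.04 for Tlr5 and 0.14 for Tlr3. It was -0.04 for Tlr2, 0.17 for Tlr6, 0.13 for Tlr13, -0.02 for Tlr1 and 0.1 for Tlr8. All 10 overlapped under that label. When the marker mean was entered as a covariate in edgeR, the log2 fold change of Tlr9 by title was -0.87 (SE 0.26, unadjusted p = 0.0101, adjusted p = 0.73). That of Tlr8 was -0.73 (SE 0.40), that of Tlr1 was -0.22 (SE 0.33) and that of Tlr7 was 0.69 (SE 0.42, unadjusted p = 0.14). In this fit 0 of the 10 receptors were called, beside 982 of 32816 loci in either direction. A count of 0 of 10 is near that share. With the covariate and the genotype entry, the log2 fold change was -0.18 for Tlr9, 0.14 for Tlr8, -0.02 for Tlr1 and -0.32 for Tlr7. In that fit 0 of the 10 receptors and 345 of 32816 loci were called. The part of macrophage content in the differences by title was not tested beyond these values.

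**Figure D4:**
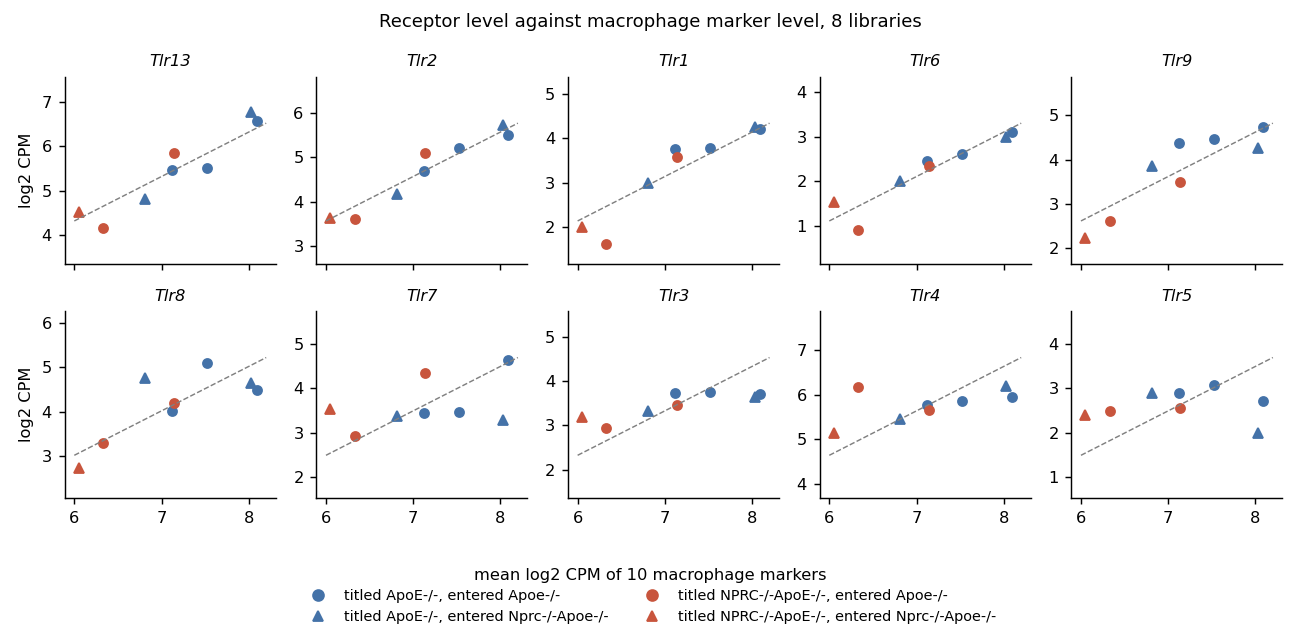
log2 CPM of each receptor (vertical axes, all of the same height in log2 units) against the mean log2 CPM of 10 macrophage markers (horizontal axis), 1 point per library. Colour gives the title and shape the genotype entry, and the dashed line has a slope of 1 through the means. The standard deviation of the distance from that line is 0.22 for Tlr2 and 0.82 for Tlr5.

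The pathway around the receptors was compared by title in lists of its other genes. Of 72 genes, 71 were tested, 66 were lower, 11 were called lower and 0 higher by title, beside 3.77% of all loci called lower and 50.9% below 0. By genotype entry 48 of 71 were lower and 0 were called, beside 50.6% and 0.503% of all loci. Of 13 co-receptors and chaperones, 3 were called lower. Unc93b1, the chaperone that carries the endosomal receptors out of the endoplasmic reticulum, was 12.99 to 24.38 FPKM in ApoE-/- and 5.90 to 12.63 FPKM in NPRC-/-ApoE-/- libraries, without overlap (log2 fold change -1.14, SE 0.31, adjusted p = 0.26 in edgeR). Ly86, which forms a complex with the receptor homologue Cd180, was at -1.39 (SE 0.40), and Lbp, the lipopolysaccharide binding protein, was at -1.11 (SE 0.32). By genotype entry Unc93b1 was at -0.28 (SE 0.47), Ly86 at -0.26 (SE 0.58) and Lbp at -0.32 (SE 0.46).

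Adaptors and kinases had a median log2 fold change of -0.15 over 21 genes, and 1 call among them is near the 3.77% of all loci called lower. Pik3ap1, an adaptor that links the receptors to PI3 kinase, was the only one called, at -1.22 (SE 0.40). Irak4, the kinase that starts the Myd88 complex, came next by p-value and was at -0.48 (SE 0.17, unadjusted p = 0.0222), not past the fold criterion. By genotype entry Pik3ap1 was at -0.28 (SE 0.55) and Irak4 at 0.0 (SE 0.24). Of 10 inhibitors, none was called and all 10 were below 0, with a median of -0.33. Of 10 transcription factors, Irf7 (-1.37, SE 0.37) and Irf8 (-1.45, SE 0.39) were called lower, and both act downstream of the endosomal receptors. By genotype entry Irf7 was at -0.71 (SE 0.52) and Irf8 at -0.28 (SE 0.59). In the list of 16 induced targets, 15 were tested, all 15 were below 0 and 4 were called. These were Il6 (-3.48, SE 1.14), Il1b (-2.25, SE 0.83), the chemokine Cxcl1 (-1.51, SE 0.41) and the chemokine Ccl5 (-1.48, SE 0.57). By genotype entry Il6 was at -1.39 (SE 1.38), Il1b at -0.53 (SE 1.02), Cxcl1 at -0.4 (SE 0.61) and Ccl5 at -0.23 (SE 0.71). Il6 ranged from 0.21 to 8.18 FPKM within the ApoE-/- libraries and from 0.06 to 0.67 FPKM in the NPRC-/-ApoE-/- libraries, so the groups overlapped. Il12a, Il12b and Il10 reached at most 0.09, 0.26 and 0.54 FPKM (SE 0.89, 1.03 and 1.17). Their signs therefore carry little. The filter of 1 FPKM in 3 libraries kept 8 targets, of which 4 were called. By genotype entry 11 of the 15 targets tested were below 0 and 4 above.

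The calls in these lists also depended on single libraries. Leaving out NPRC-/-ApoE-/- 2 or NPRC-/-ApoE-/- 3 left 2 called targets, and leaving out NPRC-/-ApoE-/- 1 gave 7. With the macrophage marker covariate, 0 co-receptors, 0 adaptors, 0 transcription factors and 0 targets were called, but both Tlr11 and Tlr12 were, 2 of 2 against 1 of 2 without it. Of all 32816 loci, 982 were called in that fit. The mouse receptors outside the set of 10, Tlr11 and Tlr12, which sense profilin of protozoa, were low throughout, at most 0.28 and 0.62 FPKM. Tlr11 was called lower by title (0.23 to 0.28 against 0.07 to 0.13 FPKM, log2 fold change -1.37, SE 0.30, unadjusted p = 0.00127), and Tlr12 was at -0.96 (SE 0.33). By genotype entry Tlr11 was at 0.07 (SE 0.51) and Tlr12 at -0.15 (SE 0.45).

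**Figure D5:**
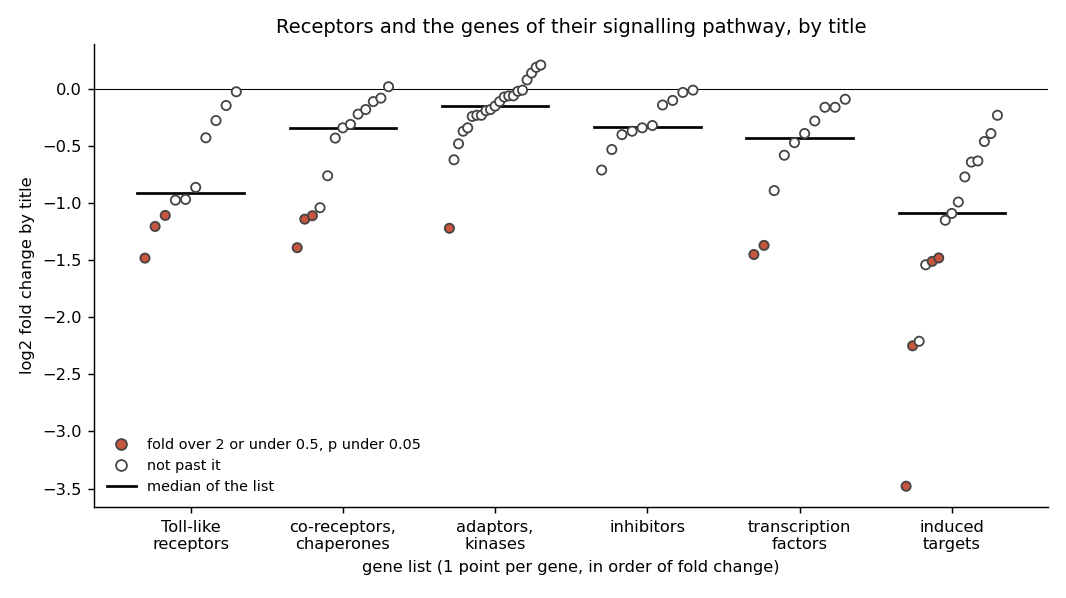
log2 fold change by title of the 10 receptors and of the other genes of their pathway, 1 point per gene in order of value within each list. Filled points passed the criterion of 2-fold and an unadjusted p-value under 0.05, and the bar is the median of the list. The median is -0.91 for the receptors, -0.15 for adaptors and kinases and -1.09 for induced targets, and no gene was called higher. The induced targets include genes of very low level, such as Il12a and Il12b.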

How the data were processed

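Per the labels and the study's methods, poly(A) RNA of the aorta was sequenced in paired ends from dUTP libraries, and the authors trimmed the reads (cutadapt 1.9 in the submitters' processing notes, which also name FastQC and GRCm38), used HISAT2 for mapping and StringTie for assembly. The authors deposited whole-number counts of every locus, not normalized, and FPKM values, scaled to transcript length and mapped fragments. How the counts were made and whether they used strand is not given in the sources used here. No column of values lacked a sample.

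Counts of the 32816 loci kept by filterByExpr (minimum count 10, smallest group 3) were tested in R 4.3.3 with edgeR 4.0.16 (TMM, quasi-likelihood test, Benjamini-Hochberg adjustment over all loci). A filter of 1 FPKM in 3 libraries would have left out Tlr5 and was an alternative. Called means past the study's criterion, an unadjusted p-value under 0.05 together with a fold of more than 2 or less than 0.5. log2 CPM used a prior count of 2. Exact permutation tests used all 56 splits and are two-sided, with 0.036 as the smallest p-value. On simulated data drawn from the real means, the edgeR test called 97.5% of 200 genes changed 4-fold and 2.12% of unchanged genes of 32816. The changed genes were drawn only from loci above a floor of counts. Smaller changes, nearer to those of the receptors, were not simulated, so the share does not tell how often a 2-fold difference is found. limma 3.58.1 and DESeq2 1.42.0 were alternatives, beside other scalings, filters, pseudocounts, a macrophage marker covariate, a replicate block and each library left out. Replicates are mice, and libraries differed beyond sampling noise (smallest mean chi-square per locus 92.7). Libraries with the same number in both titled groups did not deviate together (r = -0.19, -0.10 and 0.00).

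All 10 receptors and Npr3 are named, with from each pathway list the called genes (at most 5, or the 2 with the smallest p-value), and for each receptor the 3 loci most like it. The members and lists were chosen with earlier results of these data known. Of the list genes, 12 of 122 share a locus with another gene and their counts could not be separated. Promoter sequences are from RefSeq (GRCm38.p6), in which 8 of 10 receptors matched.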

Additional observations from a re-analysis of the deposited data

Results flagged for a closer look

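In 3 of 20 groups of 5 libraries a single library stood apart from the other 4 by Dixon's test, where chance gives 1.0. Tlr1 was at 1.61 log2 CPM in NPRC-/-ApoE-/- 2, the lowest of the 5 libraries entered Apoe-/-. Tlr7 was at 4.64 log2 CPM in ApoE-/- 3, the highest of the 5 libraries titled ApoE-/-, and without this library its log2 fold change by title was 0.33. Tlr3 was at 3.32 log2 CPM in ApoE-/- 5, the lowest of the 5 libraries titled ApoE-/-. Groups of 3 were not tested.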

How the results depend on the processing

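Tlr9 was called lower by title in 18 of 21 alternatives (log2 fold change -1.93 to -0.45, adjusted p-values 0.00061 to 1.0), Tlr1 in 14 and Tlr8 in 13. The number of receptors called by title was 0 by genotype entry, 0 with limma on log2(FPKM + 1) and 0 with the macrophage marker covariate, and 1 to 6 with single libraries left out (6 without ApoE-/- 5 or NPRC-/-ApoE-/- 1, and 1, Tlr9, without NPRC-/-ApoE-/- 2 or 3). The median log2 fold change was -0.20 by genotype entry, -0.18 with the covariate and -1.49 to -0.61 with libraries left out (-1.49 without NPRC-/-ApoE-/- 1). At an adjusted p-value under 0.05, DESeq2 called 1 receptor and array quality weights 4.

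Loci called by title numbered 1738, and 712 with the 1 FPKM filter, 332 by genotype entry, 499 with array weights, 662 and 175 with limma at pseudocounts of 0.1 and 1, 982 with the covariate, and 1141 to 3239 with libraries left out (3239 without NPRC-/-ApoE-/- 1, 1141 without NPRC-/-ApoE-/- 2). Those with an adjusted p-value under 0.05 numbered 993 in DESeq2, 1168 with array weights, 4 with 1 locus per name, 2 with limma at pseudocount 1, 1 with the covariate, 1 in the 6 libraries numbered 1 to 3 and 0 to 3 with libraries left out. By genotype entry, loci called numbered 332, and 212 with 1 locus per name, 95 with the FPKM filter, 33 with array weights, 81 and 23 with limma at pseudocounts of 0.1 and 1, 785 without filter, and 267 to 712 with libraries left out (712 without ApoE-/- 4, 516 without ApoE-/- 5, 503 without NPRC-/-ApoE-/- 2). DESeq2 gave 25 at an adjusted p-value under 0.05, and leaving out libraries 0 to 2.

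Signs turned by title for Tlr7 (0.01 with 1 locus per name, 0.69 with the covariate, -0.48 to 0.33 with libraries left out), Tlr13 (0.03 by genotype entry, 0.45 with the covariate), Tlr2 (0.30 with the covariate) and Tlr4 (0.22 with the covariate, -0.41 to 0.08 with libraries left out). By genotype entry, Tlr13 was at -0.49 with array weights, -0.18 and -0.15 with limma at pseudocounts of 0.1 and 1, -0.03 with total count scaling and -1.03 to 0.39 with libraries left out. Leaving out libraries gave -1.02 to 0.16 for Tlr1, -1.03 to 0.19 for Tlr2, -0.66 to 0.14 for Tlr6, -0.36 to 0.36 for Tlr8 and -0.63 to 0.06 for the median, and the covariate gave 0.13 for Tlr6 and 0.14 for Tlr8. The causes were not tested.

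The replicate block over the 6 libraries numbered 1 to 3 called 3 receptors with a median of -1.04, against 4 and -0.89 in the same libraries without it. These numbers are shared only as names, and the block could not be run by genotype entry, which carries no numbers. With 3 libraries in the smaller group, and labels in conflict for 4 of 8, the spread between mice limits each value more than depth does.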

Other observations

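The loci whose pattern over the 8 libraries was most like each receptor were ranked by the root mean square difference of centred log2 CPM among 18660 named loci with a mean of at least 1 FPKM. For Tlr2 the nearest were Ncf1, a subunit of the phagocyte NADPH oxidase (0.083), Galnt6 and Ripk3 (0.095). For Tlr13 they were the locus that holds Lilr4b and Lilrb4a (0.086), Adam8 and Slc11a1, a metal transporter of the macrophage phagosome (0.144). For Tlr6 they were Rgs10 (0.097), Dock2 and Pstpip1, and for Tlr1 they were Cd200r4 (0.15), the locus of Plxnc1 and Otulinl. On the same measure the receptors' own spread was 0.768 (Tlr2), 0.87 (Tlr13), 0.695 (Tlr6) and 0.928 (Tlr1). The nearest loci are the smallest of 18660 differences over 8 libraries, so the ranking itself yields small values. How small they would be for any gene was not tested.

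Tlr9 was nearest to Fgd2 (0.097), Iigp1, an interferon-induced GTPase (0.154), and Gm20388, with a spread of its own of 0.85. Tlr3, with a spread of 0.277, was nearest to Eml4 (0.068), Ccdc152 and Arid5b. Tlr4, with a spread of 0.334, was nearest to Relch (0.105), Wdr83os and Slc31a2, and Tlr5, with a spread of 0.325, to Chd1 (0.09), Gm43681 and 4833421G17Rik. Tlr7, with a spread of 0.535, was nearest to Gm28154 (0.175), Gm27295 and Gpr153. Tlr8, with a spread of 0.742, was nearest to Gm12000 (0.288), the locus that holds Gbp10 and Gbp6, and Mfng. Among the receptors themselves the closest were Tlr2 and Tlr13 (0.239), Tlr2 and Tlr6 (0.254) and Tlr1 and Tlr6 (0.277), and the farthest were Tlr5 and Tlr13 (0.996).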
